A study of Mus musculus with 10 samples.

Results

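The pentose phosphate pathway was described here by the transcripts of its 8 enzymes, G6pdx, H6pd, Pgls, Pgd, Rpia, Rpe, Tkt and Taldo1. They were taken by gene symbol from a table of 39017 genes, and each symbol named a single gene. The study asked how mouse lung tumours grow without Glut1, the glucose transporter encoded by Slc2a1. Tumours were started in C57BL/6 mice by intratracheal Ad5CC10-Cre, an adenovirus whose Cre is driven in CC10-positive airway cells, and were macrodissected 20 weeks and 1 day later. All mice carried K-rasLSL-G12D/WT and p53Fl/Fl alleles (KP), and the Glut1-KO group also carried Glut1Fl/Fl (KPG1). Cells were dissociated, depleted of CD45-positive immune cells with magnetic beads, and their mRNA was sequenced, with 5 libraries labelled Control and 5 labelled Glut1KO.

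The control libraries carry the genotype label heterozygous fl/wt, although the design text calls them Glut1-WT, so a deleted Glut1 allele in the controls cannot be told apart from an intact one here. All 5 controls came from males, whereas Glut1-KO replicates 1 to 3 came from females and replicates 4 and 5 from males. Several libraries of a group share a number in their names, 2 numbers in the controls and 4 in the Glut1-KO group, and whether a number marks a mouse was not stated, so p-values measure the spread between libraries. By the design of the virus Cre is restricted to CC10-positive cells, so stroma in the CD45-negative fraction would keep Slc2a1. Slc2a1 was not measured by cell type. Library totals ran from 35250991 to 49760462 counts. The epithelial markers were present in every library (summed level 4197 to 5712 CPM, the counts of a gene scaled to a common library total, in controls and 3502 to 7812 in Glut1-KO), as were those of club cells, the CC10-positive lineage (1770 to 9958 and 1145 to 6766 CPM). Markers of alveolar type 2 cells summed to more, 25149.7 to 79264 CPM in controls and 47979.7 to 66638 in Glut1-KO. In bulk samples fewer cells of a type and less RNA per cell cannot be told apart.

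The pathway leaves glycolysis at glucose 6-phosphate. Its oxidative branch makes NADPH, which feeds lipid synthesis and keeps glutathione reduced, and ends in ribulose 5-phosphate. Its non-oxidative branch interconverts sugar phosphates, so that ribose 5-phosphate for nucleotides can be made from, or returned to, glycolytic intermediates. Rapidly growing tumours use both products, and the supply of glucose 6-phosphate depends on glucose uptake.

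For none of the 8 transcripts did a difference between Glut1-KO and control tumours pass a test. With limma, 0 of 8 passed an adjusted p of 0.05 and 0 of 8 had an unadjusted p under 0.05, and edgeR's quasi-likelihood test and the DESeq2 Wald test also called 0 of 8. Across all 15922 genes tested, limma called 0%, an unadjusted p under 0.05 was reached by 7.68%, and DESeq2 called 1.35%. The fitted direction was higher for 6 members and lower for 2, with a median log2 difference of 0.06 beside -0.0049 for all genes. All 8 passed the filter on low counts, with 1177 to 16358 counts per library. In every one of them the 2 groups overlapped, against 1.84% of all genes without overlap.

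Slc2a1, the targeted gene, was measured at 118, 86.7, 92.6, 103 and 73.2 CPM in control replicates 1 to 5 and at 60.3, 42.5, 34.6, 92.4 and 103 CPM in Glut1-KO replicates 1 to 5. The 3 female libraries labelled Glut1-KO lay below every control, and the 2 male libraries labelled Glut1-KO lay within the control range. Over all libraries the log2 difference was -0.62 ± 0.29 (SE, limma adjusted p = 0.658). The counts cover the whole gene, so transcript from exons outside the deletion and from cells without Cre is included. Because sex and the level of Slc2a1 split the Glut1-KO libraries in the same way, they cannot be told apart, and each enzyme is given below with and without the male libraries.

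In the promoters, the G6pdx window and that of the downstream Pgd start held the core letters of the antioxidant response element, TGACNNNGC. Among the 8 enzymes no other window did. Both strands were searched from 250 bases before to 50 after each annotated start (RefSeq, GRCm38.p6). There were 9 windows for 8 genes, since Pgd has 2. The same letters occur in 12.4% of all 32851 promoters of this length, and a match is a description, not a site. The windows of G6pdx and of the downstream Pgd start are shown in part because they hold the match, given in capitals. Part of that of Taldo1, which held a GC box and not the element, is shown because its level spread most over the libraries among the non-oxidative enzymes. The letters shown are the 250 bases before the start for G6pdx and Taldo1, and 270 bases, ending at position 20 after the start, for Pgd.
G6pdx, chrX:74428881-74429130, minus strand: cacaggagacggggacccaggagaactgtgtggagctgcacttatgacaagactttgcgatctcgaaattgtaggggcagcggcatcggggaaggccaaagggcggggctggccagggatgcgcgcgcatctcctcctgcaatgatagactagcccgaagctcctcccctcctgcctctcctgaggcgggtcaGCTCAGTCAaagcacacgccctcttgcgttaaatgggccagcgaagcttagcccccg
Pgd, chr4:149166063-149166332, minus strand: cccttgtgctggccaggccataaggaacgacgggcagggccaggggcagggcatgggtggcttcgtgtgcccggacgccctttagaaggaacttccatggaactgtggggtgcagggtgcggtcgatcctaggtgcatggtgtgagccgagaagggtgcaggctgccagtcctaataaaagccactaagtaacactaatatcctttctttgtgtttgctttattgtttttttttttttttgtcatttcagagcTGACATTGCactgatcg
Taldo1, chr7:141391910-141392159, plus strand: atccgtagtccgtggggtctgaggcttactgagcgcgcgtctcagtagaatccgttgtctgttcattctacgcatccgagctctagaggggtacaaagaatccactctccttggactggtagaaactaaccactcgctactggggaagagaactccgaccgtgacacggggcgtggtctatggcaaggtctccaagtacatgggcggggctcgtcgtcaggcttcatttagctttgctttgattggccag
The G6pdx match reads GCTCAGTCA, the element on the opposite strand, 57 to 49 bases before the start. The Pgd match reads TGACATTGC at positions 4 to 12 after a start that lies within the gene, 623 bases downstream of the other Pgd start. The window of that upstream start held a GC box and not the element. The E-box CACGTG, searched on both strands, was in no member window and in 7.15% of all promoters, and the GC box GGGCGG was in windows of 7 members (all but H6pd) and in 35.7% of all promoters.

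Of the oxidative branch, G6pdx (chrX:74409483-74429194, mm10, protein-coding) encodes glucose-6-phosphate dehydrogenase, the first and rate-limiting enzyme of the cytosolic pathway. Its level was 147, 86.6, 123, 134 and 117 CPM in controls and 136, 74.5, 68.3, 114 and 140.0 CPM in Glut1-KO tumours. Glut1-KO replicates 2 and 3 were the lowest of the 10 libraries, and the other 3 Glut1-KO libraries lay within the control range. The log2 difference was -0.23 ± 0.23 (SE, 95% interval -0.74 to 0.27, limma adjusted p = 0.828; exact permutation test, two-sided, p = 0.333). It was -0.43 without the male Glut1-KO libraries (adjusted p = 0.458) and turned to 0.08 in male libraries alone (adjusted p = 0.933). G6pdx is X-linked and the controls held no female library, so sex and genotype cannot be told apart for the female tumours. Part of its exons (13.6%) overlaps Ikbkg on the opposite strand, which had up to 3561 counts in a library against 3043 to 6184 for G6pdx, and the strand setting of the counting was not given in the sources used here.

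H6pd (chr4:149979475-150009023) encodes hexose-6-phosphate dehydrogenase, which carries out the first 2 steps of the oxidative branch, the dehydrogenase and the lactonase step, inside the endoplasmic reticulum. It had the highest mean CPM of the 8 in both groups, although Pgd was above it in control replicates 1 and 3 and Glut1-KO replicates 4 and 5. The level of H6pd was 248, 267, 321, 369.8 and 314 CPM in controls and 361, 302, 367, 291 and 315 CPM in Glut1-KO tumours. All 5 Glut1-KO values lay within the control range. The log2 difference of 0.11 ± 0.13 (SE, interval -0.18 to 0.40) had a limma adjusted p of 0.861, and it was 0.19 without the male Glut1-KO libraries (adjusted p = 0.588) and 0.0051 in male libraries alone (adjusted p = 0.995).

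Pgls (chr8:71592176-71601092) encodes 6-phosphogluconolactonase, which opens the lactone made by the dehydrogenase. Its level was 32.8, 42.1, 33.5, 34.1 and 39.9 CPM in controls and 35.5, 29.3, 33.1, 41.7 and 47.0 CPM in Glut1-KO tumours. The groups had nearly the same mean (36.5 ± 4.22 and 37.3 ± 7.04 CPM, SD, n = 5 each), and the female Glut1-KO libraries lay below the male ones. The log2 difference of 0.01 ± 0.15 (SE, limma adjusted p = 0.988) became -0.16 without the male Glut1-KO libraries (adjusted p = 0.616) and 0.29 in male libraries alone (adjusted p = 0.601). Of its exons, 20.6% overlap Fam129c on the same strand, which had at most 170 counts in any library.

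Pgd (chr4:149149991-149166771) encodes 6-phosphogluconate dehydrogenase, the second NADPH-making step, which releases carbon dioxide and ribulose 5-phosphate. Its level was 290.5, 215, 325, 278 and 231 CPM in controls and 281, 200.3, 155, 316 and 316 CPM in Glut1-KO tumours. As for G6pdx, Glut1-KO replicates 2 and 3 were the lowest of all libraries. The log2 difference of -0.12 ± 0.21 (SE, interval -0.58 to 0.35, limma adjusted p = 0.913) was -0.36 without the male Glut1-KO libraries (adjusted p = 0.465) and turned to 0.25 in male libraries alone (adjusted p = 0.691). It also turned to 0.05 without Glut1-KO replicate 3.

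Of the non-oxidative branch, Rpia (chr6:70765720-70792232) encodes ribose-5-phosphate isomerase, which makes the ribose used in nucleotides. It was measured at 34.1, 40.0, 33.8, 31.7 and 36.3 CPM in controls and 30.1, 44.3, 31.9, 36.1 and 39.2 CPM in Glut1-KO tumours. The lowest and the highest library were both Glut1-KO and female. The log2 difference was 0.03 ± 0.13 (SE, limma adjusted p = 0.966), -0.01 without the male Glut1-KO libraries (adjusted p = 0.988) and 0.10 in male libraries alone (adjusted p = 0.840).

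Rpe (chr1:66700831-66719805) encodes ribulose-5-phosphate epimerase, which supplies xylulose 5-phosphate to transketolase. Controls held 56.0, 42.6, 48.4, 46.6 and 44.9 CPM and Glut1-KO tumours 48.4, 48.4, 49.8, 59.7 and 59.2 CPM. All 5 Glut1-KO libraries were above the control mean, but only the 2 male ones were above every control. The log2 difference of 0.15 ± 0.11 (SE, interval -0.10 to 0.41) did not pass (limma adjusted p = 0.773; exact permutation test, two-sided, p = 0.135), and it was 0.05 without the male Glut1-KO libraries (adjusted p = 0.870) and 0.32 in male libraries alone (adjusted p = 0.537). Of its exons, 17.9% overlap Kansl1l on the opposite strand, which had up to 3910 counts in a library, against at most 2613 for Rpe, so reads of the 2 genes cannot be told apart there if strand was not used.

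Tkt (chr14:30548359-30574720) encodes transketolase, which moves 2-carbon units between sugars. Its level was 196, 233, 254, 199 and 186 CPM in controls and 209, 199, 259, 237 and 229 CPM in Glut1-KO tumours. Its range over the 10 libraries, 1.39-fold, was the narrowest among the 8. The log2 difference of 0.09 ± 0.12 (SE, limma adjusted p = 0.883) was 0.06 without the male Glut1-KO libraries (adjusted p = 0.874) and 0.13 in male libraries alone (adjusted p = 0.809).

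Taldo1 (chr7:141392199-141402968) encodes transaldolase, which moves 3-carbon units and closes the return to glycolysis. Its level was 140.1, 110.2, 154, 107 and 131 CPM in controls and 145, 114, 103, 171 and 205 CPM in Glut1-KO tumours. The 2 male Glut1-KO libraries were above every other library, and replicate 3 was the lowest. The log2 difference was 0.17 ± 0.19 (SE, interval -0.26 to 0.59, limma adjusted p = 0.861), and it turned to -0.09 without the male Glut1-KO libraries (adjusted p = 0.832) and was 0.56 in male libraries alone (adjusted p = 0.465).

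**Figure D1:**
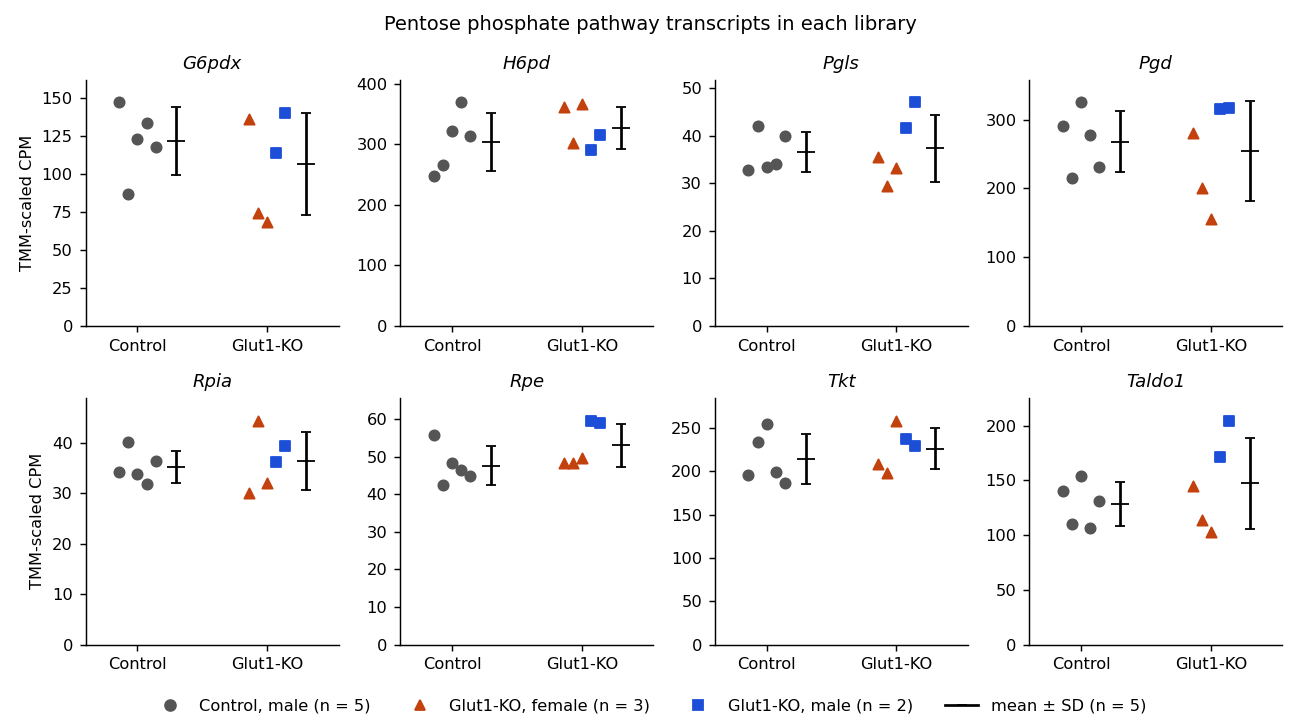
TMM-scaled CPM (vertical axis, from 0) of each enzyme in the 5 control and 5 Glut1-KO libraries, with colour and shape giving group and sex and bars the mean ± SD. The groups overlap in all 8 panels, and the 2 male Glut1-KO libraries are the highest for Rpe and Taldo1.

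The precision of these comparisons differed between members. The 95% intervals of the fold between groups were narrowest for Rpe (0.935 to 1.32) and Tkt (0.884 to 1.28) and widest for G6pdx (0.600 to 1.21), Pgd (0.668 to 1.28) and Taldo1 (0.834 to 1.51). Among the 8, G6pdx, Pgd and Taldo1 also varied most between libraries, by 2.15-, 2.10- and 1.99-fold, and the others by 1.39- to 1.60-fold. The coefficient of variation of these 3 was 18.6%, 16.7% and 15.6% in controls and 31.6%, 28.6% and 28.4% in Glut1-KO tumours. In controls H6pd, at 15.9%, varied as much as Taldo1. These intervals are for the 5 Glut1-KO libraries together, and those by sex reached a log2 difference of -0.98 for G6pdx in females and 0.97 for Taldo1 in males against the controls.

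Within the libraries labelled Glut1-KO, 7 of the 8 fitted values were lower in females than in males. With limma 0 of 8 passed, against 0.0502% of all genes, and edgeR and DESeq2 also called 0 of 8, where DESeq2 called 7.51% of all genes. An unadjusted p under 0.05 was reached by 3 of 8, all lower in females, against 18.6% of all genes in either direction. Pgls, Pgd, Rpe and Taldo1 were lower in every female than in every male Glut1-KO library, that is 4 of 8 against 20.3% of all genes. Taldo1 averaged 120.3 ± 21.8 CPM (SD, n = 3) in females and 188 CPM in the 2 males, a log2 difference of -0.65 ± 0.20 (SE, limma adjusted p = 0.157, DESeq2 adjusted p = 0.0518). The difference was -0.62 ± 0.25 for Pgd (adjusted p = 0.232), -0.45 ± 0.16 for Pgls (adjusted p = 0.200) and -0.28 ± 0.14 for Rpe (adjusted p = 0.302). That of G6pdx was -0.51 ± 0.30 (adjusted p = 0.374), with overlap, and H6pd alone had a higher fitted value in females (0.18 ± 0.18, adjusted p = 0.611). Tkt, at -0.08, turned to 0.02 when libraries were scaled by their totals, which moved the median of all genes from 0.01 to 0.11. For a single gene, 3 against 2 libraries cannot give an exact p below 0.1. The difference in Slc2a1 was -1.13 ± 0.25 (adjusted p = 0.111).

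Set against the same 5 controls, the male Glut1-KO libraries had higher fitted values for 8 of 8 members and the female ones for 3 of 8. No member passed in either comparison with limma, where 0.0188% and 0.0691% of all genes did. In males an unadjusted p under 0.05 was reached by 2 of 8, against 11.1% of all genes, and in females by 0 of 8, against 14.6%. Both in males were also higher than every control, as were 8.53% of all genes, and 0 of 8 were lower than every control, as were 8.54%. In females 0 of 8 were higher and 0 of 8 lower than every control, against 4.16% and 5.41% of all genes. Taldo1 was higher by 0.56 ± 0.19 (log2, SE, adjusted p = 0.356) and Rpe by 0.33 ± 0.13 (adjusted p = 0.406), each at the smallest exact permutation p that 5 against 2 libraries allow, 0.0476. In females the lowest fitted values were those of G6pdx (-0.44 ± 0.24, adjusted p = 0.422) and Pgd (-0.36 ± 0.20, adjusted p = 0.417). The male Glut1-KO libraries share 1 number in their names, and whether they come from 1 mouse was not stated.

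**Figure D2:**
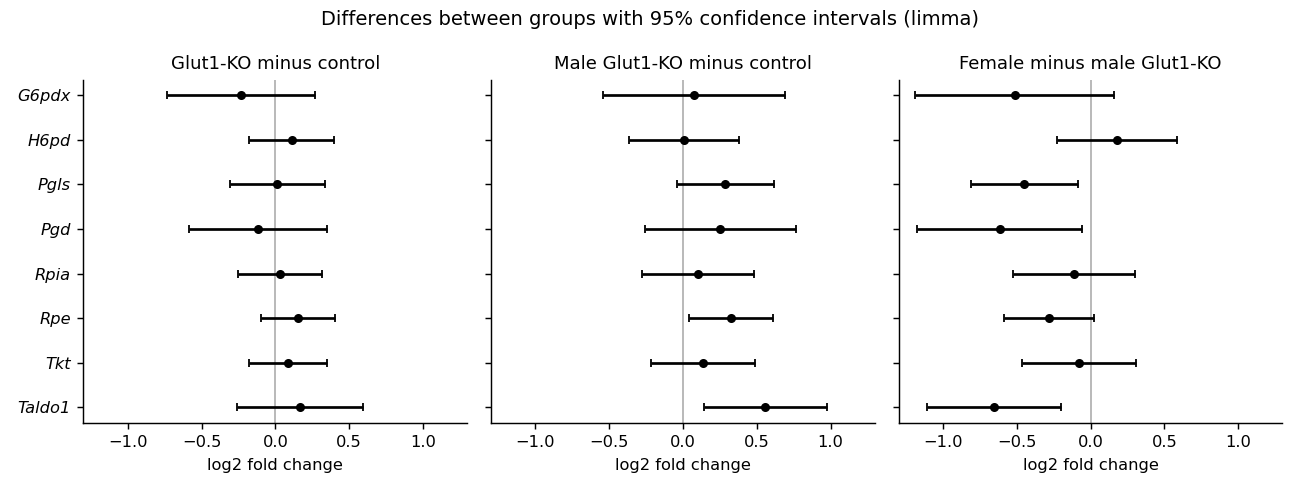
Log2 difference (horizontal axis) of each enzyme with its 95% confidence interval from limma, for Glut1-KO minus control (n = 5 and 5), male Glut1-KO minus control (n = 2 and 5) and female minus male Glut1-KO (n = 3 and 2). All 8 intervals of the first panel include 0, and no value in any panel passed the adjusted threshold.

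To compare levels between genes, CPM was divided by the length of each gene's merged exons. In controls the order was Taldo1 at 59.2 ± 9.24 CPM per kilobase (SD, n = 5), H6pd at 58.0 ± 9.20, Pgd at 41.6 ± 6.96, G6pdx at 39.5 ± 7.32, Tkt at 29.1 ± 3.91, Rpe at 15.3 ± 1.64, Pgls at 9.67 ± 1.12 and Rpia at 6.57 ± 0.59. The isomerase and the epimerase, which share a substrate, and the lactonase thus had the lowest levels, and each branch held both high and low transcripts. Neighbours were ordered alike in all 10 libraries for H6pd above Pgd, Tkt above Rpe and Rpe above Pgls, and in 9 of 10 for Pgls above Rpia. They were not for Taldo1 over H6pd (5 of 10, and 3 of 5 controls), Pgd over G6pdx (6 of 10, and 2 of 5 controls) and G6pdx over Tkt (7 of 10, and 4 of 5 controls). The first 2 of these pairs differed by less than 1 SD in controls. The order among the highest 5 depends on the length used, since with the longest transcript in place of merged exons Pgd stood at 73.5 and Tkt at 66.4, both above H6pd at 64.1 CPM per kilobase.

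**Figure D3:**
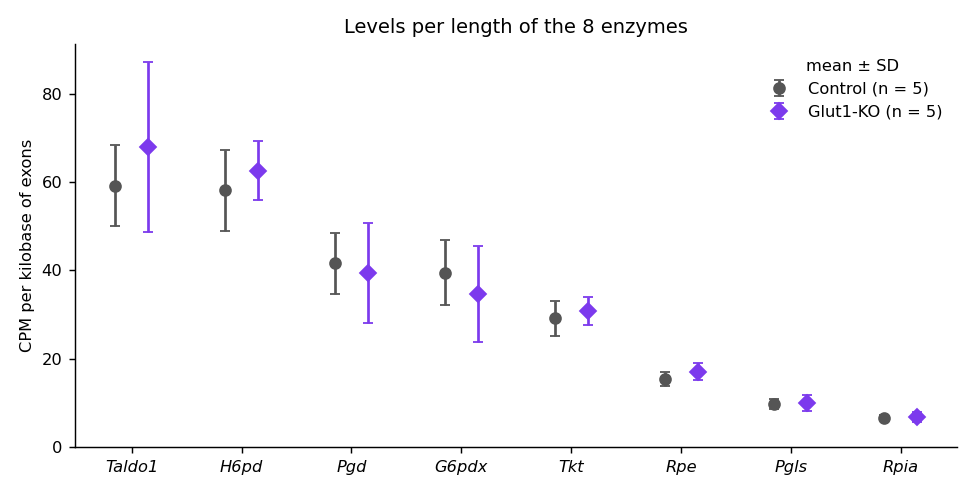
Level of each enzyme in CPM per kilobase of merged exons (vertical axis, from 0), as the mean ± SD of 5 control and 5 Glut1-KO libraries. Taldo1 and H6pd are near 60 in controls and Pgls and Rpia under 10, and the bars of the 2 groups overlap for every enzyme.

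The cytosolic and the reticular first step were also compared within each library. The ratio of G6pdx to H6pd per kilobase was 1.01, 0.552, 0.651, 0.614 and 0.636 in controls and 0.640, 0.420, 0.316, 0.664 and 0.756 in Glut1-KO tumours. H6pd thus exceeded G6pdx in 9 of the 10 libraries, all but control replicate 1. The groups overlapped, with Glut1-KO replicates 2 and 3 below every control.

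Members were then compared across libraries in pairs, 28 in all, on log2 CPM. G6pdx and Pgd, both NADPH-making dehydrogenases, followed each other (Pearson's r = 0.878, permutation p = 0.00154, adjusted p = 0.0431; Spearman's rho = 0.697, permutation p = 0.0308, adjusted p = 0.356). Without Glut1-KO replicates 2 and 3, the libraries farthest from the median of G6pdx, r was 0.643, and in the 7 male libraries it was 0.656 (permutation p = 0.113, adjusted p = 0.635), so the relation did not pass within males. Pgd and Taldo1 had the highest rho (r = 0.773, permutation p = 0.00872, adjusted p = 0.122; rho = 0.867, permutation p = 0.00218, adjusted p = 0.0610), with r = 0.715 in the male libraries (permutation p = 0.0765). Of the 28 pairs, G6pdx with Pgd alone passed by r and none by rho, and in the male libraries 0 of 28 passed. Relations within a group of 5 libraries were not tested. No pair with H6pd passed, and its r was -0.08 with G6pdx (0.30 without Glut1-KO replicates 2 and 3), -0.19 with Pgd and -0.55 with Rpia (rho = -0.67, permutation p = 0.0381, adjusted p = 0.356).

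Slc2a1 was set beside the members after the levels had been seen. Its r was 0.804 with G6pdx (permutation p = 0.00837) and 0.822 with Pgd (permutation p = 0.00486), both with an adjusted p of 0.0335 over 8 relations. Spearman's rho was 0.758 for G6pdx (permutation p = 0.0142, adjusted p = 0.114) and 0.685 for Pgd (permutation p = 0.0341, adjusted p = 0.136). Without Glut1-KO replicates 2 and 3, which were lowest for all 3 genes, r was 0.233 and 0.358. In the 7 male libraries r was 0.637 for G6pdx (permutation p = 0.122, adjusted p = 0.5202) and 0.566 for Pgd (permutation p = 0.195, adjusted p = 0.5202). Spearman's rho in males was 0.857 for G6pdx (permutation p = 0.0242, adjusted p = 0.194) and 0.393 for Pgd (permutation p = 0.393, adjusted p = 0.629), so neither relation passed within males.

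**Figure D4:**
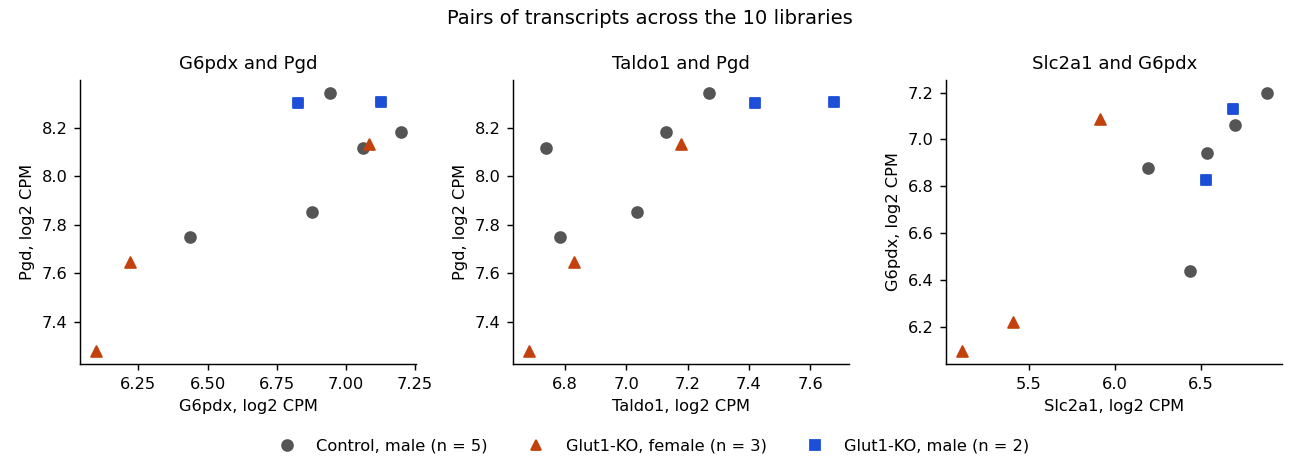
Log2 CPM of G6pdx and Pgd, Taldo1 and Pgd, and Slc2a1 and G6pdx in the 10 libraries, each point a library with colour and shape giving group and sex. Glut1-KO replicates 2 and 3, both female, sit at the lower left of the panels of G6pdx with Pgd and of Slc2a1 with G6pdx.

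For each enzyme, the genes with the most similar pattern over the 10 libraries among 15921 others were listed as a description. They were Gm16437 (r = 0.978) and Aurkaip1 (0.962) for G6pdx, Ahrr (0.940) and Dyrk1b (0.898) for H6pd, Rpl12 (0.975) and Rpl3 (0.973) for Pgls, and Sdhb (0.965) and Trappc3 (0.957) for Pgd. For the non-oxidative branch they were Mios (0.936) and Fbxo33 (0.900) for Rpia, Mob4 (0.963) and Timm17a (0.946) for Rpe, Fam222b (0.893) and Gm12919 (0.830) for Tkt, and Ndufb6 (0.946) and Gm12182 (0.927) for Taldo1. No gene stood in the lists of 2 enzymes. The points share library, sex and dissociation, so a high r marks a shared pattern over these libraries.

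Beyond the 8 enzymes, 50 genes around the pathway were listed, of which 47 passed the filter, 25 with higher and 22 with lower fitted values (median log2 difference 0.04, against -0.0049 for all genes). With limma, edgeR and DESeq2 0 of 47 passed, and with limma 2 of 47 had an unadjusted p under 0.05, Idh1 and Nadk2, a lower share than the 7.68% of all genes. Both belong to the other sources of NADPH, where 9 of 11 had higher fitted values and the median was 0.18. Idh1, the cytosolic NADP-dependent isocitrate dehydrogenase, measured 219, 298, 189, 249 and 277 CPM in controls and 284, 326, 366, 295 and 339 CPM in Glut1-KO tumours. All its Glut1-KO values were above the control mean, with control replicate 2 inside their range (log2 difference 0.40 ± 0.14, SE, limma adjusted p = 0.531). Nadk2, the mitochondrial NAD kinase, measured 42.2, 42.4, 53.8, 53.5 and 51.6 CPM in controls and 47.8, 82.2, 70.4, 61.3 and 54.0 CPM in Glut1-KO tumours (0.36 ± 0.16, adjusted p = 0.644). Nadk2 was above every control in 4 of 5 Glut1-KO libraries. Idh2, the mitochondrial isocitrate dehydrogenase that makes NADPH, was at 0.20 ± 0.17 (adjusted p = 0.799). The summed level of these 11 genes was 1360 to 1595 CPM in controls, 1628 to 1632 in female and 1753 to 1771 in male Glut1-KO libraries. This sum was not tested, and with limma 0 of the 11 genes passed. The largest share of that sum was Me1, the cytosolic malic enzyme (541 ± 88.0 CPM in controls, 591 ± 107 in Glut1-KO, SD, n = 5 each). The groups overlapped for Me1, at 468 to 683 CPM in controls and 470 to 748 in Glut1-KO.

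Among the genes that draw on the pathway's products none was called. All 4 genes of phosphoribosyl pyrophosphate synthesis, which draws on ribose 5-phosphate, had lower fitted values, from -0.25 to -0.14, and 0 passed with limma (smallest adjusted p = 0.718 for Prpsap2, then Prps1 and Prpsap1 at -0.21 and -0.14). NADPH users split into 6 higher and 6 lower, with Txnrd1, a thioredoxin reductase, at -0.28 ± 0.15 (adjusted p = 0.699), Fasn, the fatty acid synthase, at 0.30 ± 0.20 (adjusted p = 0.746) and Nqo1, a quinone reductase, at 0.62 ± 0.45 (adjusted p = 0.772). The value of Nqo1 was 0.25 without Glut1-KO replicate 5, which stood at 32.02 CPM, and the other 4 Glut1-KO libraries lay within the control range of 3.82 to 15.7 CPM. Regulators and targets of NRF2, the factor that binds the antioxidant response element, split into 5 higher and 6 lower. This list shares 3 genes, Txnrd1 and Nqo1 among them, with the users. Srxn1, a sulfiredoxin, was at -0.27 ± 0.22 (adjusted p = 0.789), and Nfe2l2, which encodes NRF2, was at -0.02 ± 0.13. The value of Srxn1 was -0.08 without control replicate 3, which stood at 73.1 CPM. Of the sugar phosphate neighbours, 5 of 9 tested were higher. Gpi1 and Pgm2, an isomerase and a mutase of hexose phosphates, were at 0.12 ± 0.15 and 0.15 ± 0.12, Rbks, a ribokinase, was at -0.48 ± 0.26 (adjusted p = 0.708), and Tigar, a fructose bisphosphatase that diverts sugar to the pathway, was at -0.20 ± 0.29 (adjusted p = 0.885). The value of Tigar turned to 0.02 without Glut1-KO replicate 3 and was -0.37 without Glut1-KO replicate 5. Tigar measured 15.2, 15.4 and 9.86 CPM in female Glut1-KO libraries, all below the controls (16.1 to 27.3 CPM). It measured 28.6 and 27.8 CPM in male Glut1-KO libraries, above every control. Of all genes, 5.41% lay below every control in females and 8.53% above every control in males. Gpi1 measured 697 and 658 CPM in males, above every control (455 to 566 CPM), and 404 to 555 CPM in females. Of the reticular partners of H6pd, 1 of 3 had a higher fitted value, Hsd11b1 at 0.35 ± 0.47, which uses the NADPH made there, and Slc37a4, the glucose 6-phosphate carrier, and G6pc3, a phosphatase, were at -0.10 ± 0.18 and -0.19 ± 0.11. Hsd11b1 was at 0.05 without Glut1-KO replicate 2 and 0.65 without Glut1-KO replicate 5, and Slc37a4 turned to 0.03 without control replicate 2. The isoform genes G6pd2, Tktl1 and Tktl2 had too few counts to be tested.

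The levels of marker genes are given here by group, and their part in the enzyme levels was not tested. Of 13 leukocyte markers tested 11 had higher fitted values in Glut1-KO, with a median of 0.88 and summed levels of 335 to 472 CPM in controls and 366 to 602 in Glut1-KO. Cd3e, the T cell marker, was at 0 in some libraries, and Ptprc, which encodes CD45, was at 2.30 to 3.26 CPM in controls and 5.05 to 10.1 in Glut1-KO, above every control. All 8 endothelial markers had higher fitted values (median 0.64, sums 82.8 to 318 and 123 to 437 CPM) and all 8 ciliated markers lower (median -0.95, sums 11.3 to 259 and 14.8 to 59.1 CPM). Of 15 genes induced by cell dissociation 14 had lower fitted values, with sums of 6493 to 8625 CPM in controls, 6178 to 6940 in female and 4280.4 to 4762 in male Glut1-KO libraries. Of 10 proliferation genes 8 had lower fitted values (median -0.15, sums 423 to 808 and 369.6 to 524 CPM). Erythroid genes had lower fitted values for 4 of 5 tested (median -0.55). Their sums were 237 to 1462 CPM in controls, 189 to 232 in female and 407 to 751 in male Glut1-KO libraries. Fibroblast markers had lower fitted values for 5 of 7 (median -0.20, sums 93.9 to 370 and 63.4 to 410 CPM). Club cell markers had lower fitted values for 4 of 6 (median -0.56) and epithelial markers for 4 of 7 (median -0.016). Alveolar type 2 markers had higher fitted values for 6 of 8 (median 0.21). With limma and edgeR no marker passed the adjusted threshold, and DESeq2 called 9 of 86 (5 leukocyte, 3 dissociation and 1 ciliated), against 1.35% of all genes. With limma 7 of 13 leukocyte, 1 of 8 endothelial, 0 of 8 ciliated and 6 of 15 dissociation genes had an unadjusted p under 0.05, against 7.68% of all genes.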

How the data were processed

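Poly(A) RNA of CD45-negative tumour fractions was sequenced with a stranded mRNA kit. The authors deposited raw counts per gene (whole numbers). The submitters' processing notes name bcl2fastq 2.17, cutadapt 1.4.2, HISAT2, featureCounts 1.4.4, edgeR and genome build mm10. The strand setting and the annotation release were not given in the sources used here. The deposited log2 table was not used. Counts were scaled by TMM and given as CPM (R 4.3.3, edgeR 4.0.16). Genes passing filterByExpr (minimum count 10, total 15) were fitted with limma 3.58.1 (voom). TMM, voom and limma follow the study's methods, whereas the study kept genes by an average TPM of at least 20, which was run as an alternative (7290 genes). The fit used Benjamini-Hochberg adjustment over all 15922 genes and a threshold of 0.05. A fit with female Glut1-KO, male Glut1-KO and control as groups gave the contrasts by sex. Alternatives were edgeR's quasi-likelihood test, DESeq2 1.42.0, other scalings, filters, sample sets and blocks. Exact permutation tests enumerated all assignments of libraries, and correlations used 100000 permutations. Gene positions and exon lengths are those of GENCODE M21 on GRCm38, and 96.6% of the table's genes were found there. In data simulated for Glut1-KO against control with 15922 genes, limma recovered 37 of 100 genes changed by 1 log2 unit and 75 of 100 changed by 2. There were 10 false calls among the unchanged genes. The changed genes were drawn from all expression levels, so these shares are not specific to the enzymes.

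Every enzyme was named, with Slc2a1, the genes of each surrounding list that passed or otherwise had the smallest p (3 a list), and the 2 most similar genes of each enzyme. Nfe2l2, Me1, Tigar, Ptprc and Cd3e were named outside that rule after their values had been seen. The untested isoform genes G6pd2, Tktl1 and Tktl2 were also named outside that rule, as were Ikbkg, Fam129c and Kansl1l, which overlap exons of members. The members and lists were chosen with earlier results of these data known. Total counts per library set the precision of each value, and intervals cover the spread between libraries.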

Additional observations from a re-analysis of the deposited data

How the results depend on the processing

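No member was called under any of the 22 alternatives of the Glut1-KO comparison, nor under the 14 of the comparison by sex, which were added after seeing the data. The smallest adjusted p of a member was 0.356 in the former and 0.0518 in the latter (Taldo1, DESeq2 Wald). In 161 of 176 cases a member kept its direction. Of the 15 exceptions, none of them called, 7 were G6pdx and Pgd with sex as a covariate (0.077 and 0.25) or male libraries only (0.076 and 0.25), and Pgls (-0.16), Rpia (-0.0060) and Taldo1 (-0.090) without the male Glut1-KO libraries. The others came from leaving out 1 library, 5 for Pgls, 2 for Rpia and 1 for Pgd (without Glut1-KO replicate 3). Leaving out 1 library at a time gave -0.35 to -0.089 for G6pdx, 0.040 to 0.19 for H6pd, 0.11 to 0.21 for Rpe, 0.038 to 0.15 for Tkt, 0.046 to 0.28 for Taldo1, -0.068 to 0.097 for Pgls, -0.21 to 0.047 for Pgd and -0.043 to 0.099 for Rpia. By sex, Tkt turned to 0.019 with library totals, and leaving out 1 library gave -0.82 to -0.32 for G6pdx and -0.79 to -0.54 for Taldo1.

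Over all genes the count called rose from 0 to 215 with the DESeq2 Wald test, 3 with sex as a covariate, 1 in male libraries only, 9 without the male Glut1-KO libraries and 2 with counts summed per name number, and ran from 0 to 1 when leaving out 1 library at a time. The cause was not tested. Of the pathway list genes 0 were called under each alternative. The count of correlated pairs fell from 1 to 0 in male libraries only. The replicate block gave 0 calls among members and over all genes. The replicate numbers were not stated to pair the libraries. Deviations of libraries with the same number correlated at -0.13 to 0.20 and none was closest to its own number, which cannot exclude a pairing.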
